A study of Mus musculus with 8 samples.

Results

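Collagens are the main structural proteins of the extracellular matrix. Each collagen molecule is made of 3 chains that wind around each other, and the helical part of every chain repeats a triplet of glycine and any 2 other residues, written Gly-X-Y. Fibroblasts build and secrete the fibrillar collagens of connective tissue, the beaded microfibrils of type VI and part of the type IV network that underlies basement membranes, and they modify, fold, trim and cross-link the chains with a set of dedicated enzymes and chaperones.

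The collagen genes were taken as the protein-coding genes whose Ensembl ID carries a symbol made of Col, a number, a and a number in the GRCm38 annotation (GENCODE M21). This gave 43 genes of the 19493 endogenous genes in the count table, from 44 so named in the annotation, and Col13a1 was not analysed here. A filter on low counts kept 41 of them among 16470 tested genes, and Col6a4 and Col6a6 did not pass. The RNA came from mouse embryonic fibroblasts (MEFs) of E14.5 embryos. The labels give the strain as C57BL/6J.129P2, and the study's methods state repeated backcrossing to C57BL/6JNimr. WT cells were compared with Dp1Tyb cells, which carry a duplication of chromosome 16 from Lipi to Zbtb21 and so hold 3 copies of the genes between them where WT cells hold 2. There were 4 libraries per genotype, with ERCC spike-in RNA added to a fixed number of cells, and the labels give no treatment that differed between the genotypes. According to the study's methods, the headless and eviscerated embryos were dissociated and their cells passaged, so that a library holds whatever cells grew out of the remaining tissue. The labels do not tie a library to an embryo, so the spread between these libraries, on which the p-values rest, may in part be technical. None of the 43 genes lies in the duplication. Col8a1 shares chromosome 16 with it but ends 17785777 bases before the start of Lipi, and Col6a1, Col6a2 and Col18a1 on chromosome 10 are orthologues of genes on the human chromosome that is trisomic in Down syndrome.

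Total counts ranged from 17698900 to 26471758 per library. Levels are given as RPKM, reads per kilobase of transcript and per 1000000 reads, after scaling to the endogenous genes (relative scaling), and differences as log2 fold changes of Dp1Tyb over WT under relative scaling and under scaling to the spike-ins, which follows RNA per cell. With all 8 libraries the spike-in fit pooled the spread over genes, so its SEs and p-values do not measure the spread of each gene. Col6a3, Col1a1 and Col5a3 had SEs of 0.15, 0.32 and 0.42 under relative scaling, and each had 0.32 under spike-in scaling. In bulk RNA, fewer cells of a type and less RNA per cell cannot be told apart. Endogenous RNA per spike-in overlapped between the genotypes, from 0.713 to 1.19 in WT and from 0.688 to 1.31 in Dp1Tyb. All 10 fibroblast markers passed the filter, and their summed level lay between 14230 and 16250 counts per 1000000 (CPM) in WT and between 16390 and 18460 CPM in Dp1Tyb. Most of this sum was Fn1, the fibronectin gene, at 8328 to 10180 CPM in WT and 9816 to 11410 CPM in Dp1Tyb, and Vim, the vimentin gene. Of the 10 markers, 6 had a log2 fold change below 0 under relative scaling, with a median of -0.06. Macrophage markers were also found, at a summed 84.0 to 102 CPM in WT and 46.6 to 72.5 CPM in Dp1Tyb, and their part in the collagen values was not tested. The pan-leukocyte gene Ptprc was below every WT library in 4 of 4 Dp1Tyb libraries, where 1.49% of all tested genes were. Its difference was -0.87 ± 0.12 (SE) on the log2 scale under relative scaling, at an adjusted p of 0.0903 by edgeR's quasi-likelihood test, and -0.76 ± 0.36 (SE) under spike-in scaling. All 4 macrophage markers were lower at an unadjusted p under 0.05 under relative scaling, beside 2.53% of all genes, and 1 of 4 was under spike-in scaling, beside 0.316%. With 1 library left out in turn under relative scaling, the largest unadjusted p by the same test was 0.000264 for Ptprc. It was above 0.05 for Csf1r (0.0558), Adgre1 (0.0516) and Cd68 (0.0955).

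Collagen transcripts made up 2.41% ± 0.54 (SD, n = 4) of the endogenous counts in WT MEFs and 2.46% ± 0.46 (SD, n = 4) in Dp1Tyb MEFs. The single WT libraries stood at 2.40%, 3.16%, 2.23% and 1.86%, and the Dp1Tyb libraries at 1.84%, 2.78%, 2.85% and 2.38%. The ranges of the genotypes overlapped almost in full, and the difference of 0.0498 percentage points was smaller than the spread within either. Fibrillar chains held most of this share, with 1.56% ± 0.46 (SD, n = 4) in WT and 1.65% ± 0.35 (SD, n = 4) in Dp1Tyb. Col1a1, Col1a2 and Col3a1 together took between 39.0% and 52.6% of all collagen counts in a library. Relative to the spike-ins, the collagen counts of a library lay between 0.651 and 1.17 times the geometric mean of all libraries in WT and between 0.835 and 1.32 times in Dp1Tyb.

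**Figure D1:**
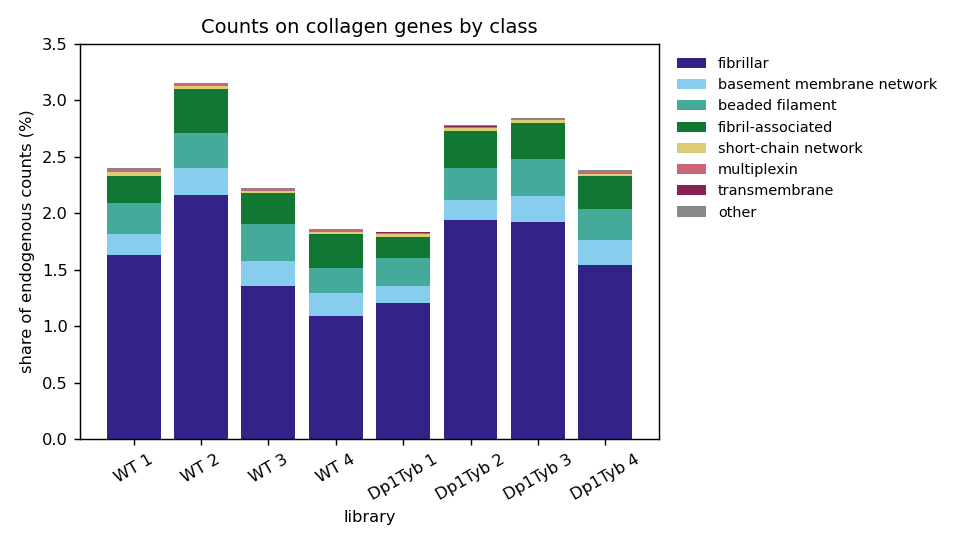
Share of endogenous counts (%, vertical axis) that fell on collagen genes in each of the 8 libraries, as stacked bars coloured by collagen class. The tallest bar is WT 2 at 3.16% and the shortest are Dp1Tyb 1 at 1.84% and WT 4 at 1.86%, so that high and low libraries occur in both genotypes.

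The levels of the 43 genes ranged over more than 4 orders of magnitude. Their mean RPKM was 100 or more for 11 genes, 10 to under 100 for 6, 1 to under 10 for 11 and under 1 for 15. The 11 highest were the type I chains Col1a1 and Col1a2, the type III chain Col3a1, the type V chains Col5a1 and Col5a2, the type IV chains Col4a1 and Col4a2, the type VI chains Col6a1, Col6a2 and Col6a3, and Col12a1, a chain that sits on the surface of collagen fibrils. The lowest were Col6a4, Col6a5 and Col6a6, chains that can replace Col6a3 in type VI, and Col22a1, whose mean counts per library lay between 7.0 and 12.6. The cartilage chains of types II and IX were low but present. Col2a1, the main fibrillar chain of cartilage, stood at 3.16 ± 1.27 RPKM (SD, n = 4) in WT and 2.29 ± 0.98 RPKM (SD, n = 4) in Dp1Tyb, and Col9a1, Col9a2 and Col9a3 all stayed under 1 RPKM. The chondrocyte markers Acan, Hapln1, Matn3 and Cnmd were low, at 1.65 to 5.87 CPM, 5.54 to 12.9 CPM, 0.232 to 2.38 CPM and 0.00 to 0.806 CPM over all libraries, and 5 chondrocyte markers of the table summed to 65.0 to 141 CPM in WT and 57.5 to 106 CPM in Dp1Tyb, most of it Sox9.

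**Figure D2:**
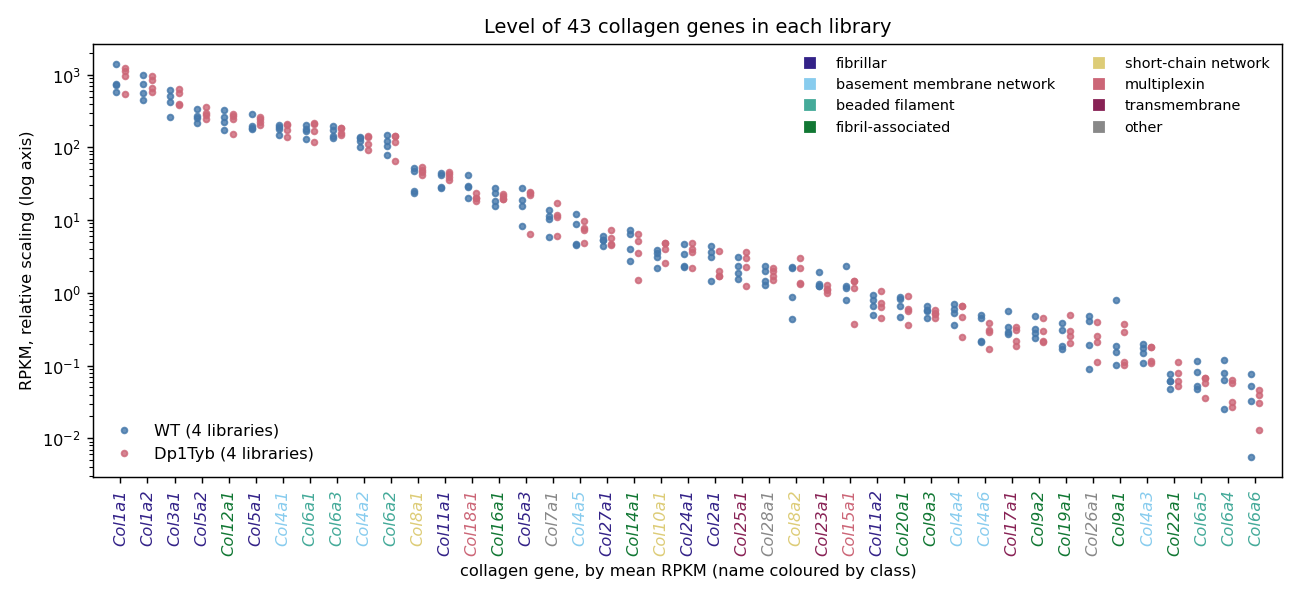
RPKM under relative scaling (log axis) of the 43 collagen genes, ordered by their mean over 8 libraries, with 1 point per library and the gene names coloured by class. The points of WT and Dp1Tyb overlap for every gene, and a gap in level separates the 11 genes at 100 RPKM or more from the rest.

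No collagen gene was called different between Dp1Tyb and WT MEFs. At an adjusted p under 0.05, edgeR's quasi-likelihood test called 0 of 41 collagen genes under spike-in scaling, against 0.0121% of all tested genes, and 0 of 41 under relative scaling, against 0.0182%. DESeq2 also called none under either scaling. At an unadjusted p under 0.05, 0 of 41 collagen genes passed under spike-in scaling (1.17% of all genes) and 1 of 41, Col18a1, under relative scaling (4.27% of all genes). No collagen gene had its 4 Dp1Tyb libraries all above the 4 WT libraries, where 1.64% of all tested genes did, and none had them all below, where 1.49% did. The median log2 fold change of the 41 genes was -0.001 under relative scaling, beside 0.01 for all tested genes, and 0.14 under spike-in scaling, beside 0.11 for all tested genes. The log2 fold changes ran from -0.56 for Col9a1 to 0.46 for Col8a2 under relative scaling and from -0.45 for Col18a1 to 0.50 for Col10a1 under spike-in scaling. The 95% interval lay wholly within a 1.5-fold change in either direction for 10 genes under relative scaling, which were Col4a1, Col4a2, Col5a1, Col5a2, Col6a1, Col6a3, Col12a1, Col16a1, Col27a1 and Col28a1. For the other 31 genes the interval under relative scaling reaches a 1.5-fold change in at least 1 direction. Under spike-in scaling 0 genes met this limit, and none could. The smallest SE of the family there, 0.316 for Col16a1, already gives an interval wider than 1.5-fold on each side of its centre. Of the 20 collagen genes chosen for closer description, 11 changed the sign of their log2 fold change when 1 library was left out under relative scaling, and 8 did under spike-in scaling.

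**Figure D3:**
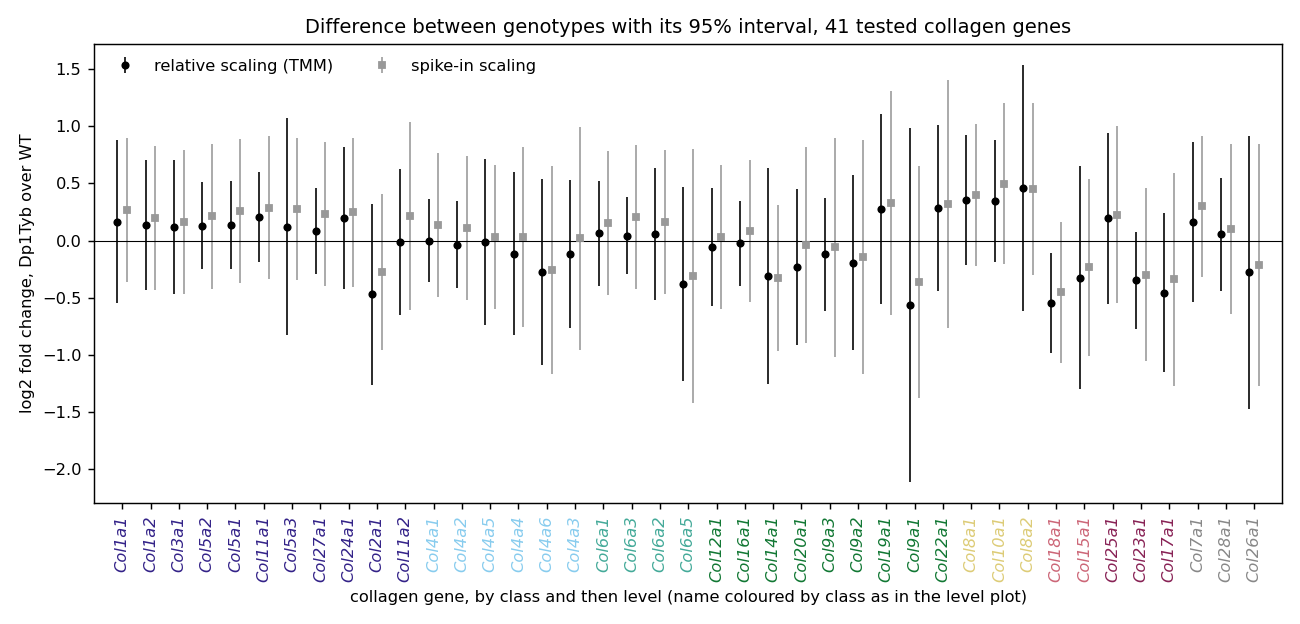
Log2 fold change of Dp1Tyb over WT with its 95% interval for the 41 tested collagen genes, grouped by class and ordered by level within a class, under relative scaling (black circles) and spike-in scaling (grey squares). The intervals of 40 genes span 0 under relative scaling and that of Col18a1 lies below it; under spike-in scaling all 41 span 0.

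The fibrillar collagens form the load-bearing fibrils of skin, tendon and bone. Their chains carry the longest uninterrupted helix of the family. In the transcripts with the longest coding sequence, the longest run of Gly-X-Y triplets was 338 in Col1a1, 339 in Col1a2 and 344 in Col3a1, and the 11 fibrillar chains had a median of 338, with 216 in Col24a1 and 217 in Col27a1 at the lower end. The first 10 triplets of the run are given for the 3 most abundant chains, since the repeat is what all members share and the text of the chains differs around it. Capitals mark glycine codons, and the sequences come from GENCODE M21 transcripts.
Col1a1: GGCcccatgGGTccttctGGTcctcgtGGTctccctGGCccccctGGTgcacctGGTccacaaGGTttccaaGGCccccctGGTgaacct
Col1a2: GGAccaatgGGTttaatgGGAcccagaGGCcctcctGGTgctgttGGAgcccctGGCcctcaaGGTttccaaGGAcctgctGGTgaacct
Col3a1: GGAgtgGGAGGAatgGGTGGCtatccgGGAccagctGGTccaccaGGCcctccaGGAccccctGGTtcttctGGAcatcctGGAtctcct

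Col1a1 and Col1a2 encode the chains of type I collagen, the most abundant collagen of connective tissue. Col1a1 stood at 714, 1415, 732 and 581 RPKM in WT libraries 1 to 4 and at 546, 1138, 1229.9 and 945 RPKM in Dp1Tyb libraries 1 to 4. WT 2 and the Dp1Tyb libraries 2, 3 and 4 were high, Dp1Tyb 1 was the lowest of all, and the genotypes overlapped. The log2 fold change was 0.17 ± 0.32 (SE) under relative scaling, with a 95% interval from -0.55 to 0.88, and ran from 0.02 without WT 4 to 0.53 without WT 2. Col1a2 stood at 734, 993, 557 and 455 RPKM in WT and at 574, 945, 834 and 652 RPKM in Dp1Tyb, with WT 2, Dp1Tyb 2 and Dp1Tyb 3 again the highest and WT 4 the lowest. Its log2 fold change was 0.13 ± 0.25 (SE) under relative scaling, and ran from -0.02 without WT 4 to 0.38 without WT 2. Col3a1, the chain of the type III fibrils that lie beside type I in elastic tissues, stood at 623, 501, 415 and 265 RPKM in WT and at 392, 624, 556 and 387 RPKM in Dp1Tyb. Its log2 fold change of 0.12 ± 0.26 (SE) was also smaller than its error, and was -0.06 without WT 4 and 0.32 without WT 1.

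Type V collagen starts fibril assembly and limits fibril width, and its 2 major chains were among the steadier members. Col5a1 stood at 182, 286, 196 and 178 RPKM in WT and at 203, 243, 258 and 223 RPKM in Dp1Tyb, with a log2 fold change of 0.14 ± 0.17 (SE) that ran from 0.07 without WT 4 to 0.33 without WT 2. Col5a2 stood at 219, 337, 252 and 272 RPKM in WT and at 242, 364, 297 and 278 RPKM in Dp1Tyb, with a log2 fold change of 0.13 ± 0.17 (SE) that ran from 0.01 without Dp1Tyb 2 to 0.27 without WT 2. Col5a3, another type V chain, varied far more. It stood at 8.30, 27.3, 19.0 and 15.8 RPKM in WT and at 6.53, 22.0, 24.7 and 23.5 RPKM in Dp1Tyb, so that 1 library of each genotype lay well below the other 3. Under relative scaling Col2a1 had one of the 5 largest log2 fold changes of the family, -0.47 ± 0.36 (SE), and under spike-in scaling the value was -0.28 ± 0.35 (SE). Its libraries stood at 1.44, 3.65, 3.12 and 4.44 RPKM in WT and at 1.68, 1.73, 1.99 and 3.74 RPKM in Dp1Tyb, and the groups overlapped. Without Dp1Tyb 4 the log2 fold change was -0.81 under relative scaling and -0.80 under spike-in scaling, and without WT 4 it was -0.26 and 0.11. The 4 tested chondrocyte markers were also below 0 under both scalings, with a median of -0.22 under relative scaling and -0.05 under spike-in scaling. Of all tested genes, 51.2% and 70.4% were above 0. None of the 4 had an unadjusted p under 0.05, and the part of such cells in the Col2a1 value was not tested.

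As a group, 9 of 11 fibrillar genes had a log2 fold change above 0 under relative scaling, where 51.2% of all tested genes did, and 10 of 11 under spike-in scaling, where 70.4% did. Their median was 0.13 under relative scaling and 0.23 under spike-in scaling. None of the 11 passed the test, and 0 had an unadjusted p under 0.05 under either scaling. The genes were measured in the same 8 libraries and are not independent observations. They did not all follow 1 order, since WT 4 was the lowest library for Col1a2, Col3a1 and Col5a1 and the highest for Col2a1, and Dp1Tyb 2 was the highest for Col3a1, Col5a2 and Col24a1 and the lowest for Col11a2. With each library left out in turn, between 7 and 10 of the 11 were above 0 under relative scaling and between 7 and 11 under spike-in scaling.

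Type IV collagen forms the sheet-like network of basement membranes, and its chains carry many interruptions of the repeat. Across the 6 type IV chains the longest run was 39 to 66 triplets, and a chain held between 23 and 27 runs of at least 3 triplets. The end of the longest run of Col4a1 is shown with the codons that follow it, because the spacing of the glycine codons in capitals breaks off there, after 7 triplets.
Col4a1: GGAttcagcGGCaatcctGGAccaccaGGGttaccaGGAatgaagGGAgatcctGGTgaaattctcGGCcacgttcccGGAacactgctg

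The 3 pairs of type IV genes lie head to head. Col4a1 (chromosome 8, bases 11198423 to 11312826, minus strand) and Col4a2 (11312805 to 11449287, plus strand) overlap by 22 bases at their starts in the GENCODE M21 gene models, Col4a4 and Col4a3 on chromosome 1 are 71 bases apart, and Col4a6 and Col4a5 on chromosome X are 1308 bases apart. The start region of Col4a1 and Col4a2 holds a CCAAT box, the letters CCAAT on either strand, which is shown in capitals in 30 bases on the minus strand at chr8:11312954-11312983 of GRCm38.p6 (RefSeq).
Col4a1: tgcttgcccgggATTGGcgagccaaggggc

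Of 37 RefSeq promoter windows of collagen genes, each from 250 bases before to 50 bases after an annotated start and covering 34 of the 43 genes, 13 held CCAAT (35.1%), beside 37.4% of 32851 windows of all genes. TATAAA was found in 4 of 37 (10.8%), beside 13.6% of all windows, and GGGCGG in 23 of 37 (62.2%), beside 35.7%. Both strands were searched, and a match describes the letters only.

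Col4a1 stood at 147, 205, 189.8 and 179 RPKM in WT and at 137, 171, 209 and 203 RPKM in Dp1Tyb, with a log2 fold change of -0.001 ± 0.16 (SE) under relative scaling. Col4a2 stood at 99.9, 138, 136 and 123 RPKM in WT and at 90.6, 113, 146 and 137 RPKM in Dp1Tyb, with a log2 fold change of -0.03 ± 0.17 (SE). Both genes followed the same order of libraries at their low end, where Dp1Tyb 1 and WT 1 were the lowest of all 8. The other type IV chains, which replace these in kidney, lung and muscle basement membranes, were lower by far, with Col4a5 at 7.52 ± 3.59 RPKM (SD, n = 4) in WT and 7.45 ± 1.99 RPKM (SD, n = 4) in Dp1Tyb and Col4a3, Col4a4 and Col4a6 under 1 RPKM. All 6 type IV genes had a log2 fold change below 0 under relative scaling, between -0.27 and -0.001, where 51.2% of all tested genes were above 0. Under spike-in scaling 5 of 6 were above 0, where 70.4% of all tested genes were. The median of all tested genes moved from 0.01 to 0.11 between the scalings, so this change of sign is not particular to type IV. None of the 6 genes passed the test.

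Type VI collagen forms beaded microfibrils around cells from chains that join 1 helix to long globular domains. The helix is short: the runs of Gly-X-Y triplets held 31.9% of the Col6a1 and Col6a2 proteins and 10.1% of Col6a3, with a longest run of 87 triplets in Col6a1 and Col6a2. The first 10 triplets of Col6a1 are shown to set beside the fibrillar chains.
Col6a1: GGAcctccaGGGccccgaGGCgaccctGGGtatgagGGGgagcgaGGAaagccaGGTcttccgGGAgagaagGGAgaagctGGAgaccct

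Col6a1 (chromosome 10, bases 76708792 to 76726168, minus strand) and Col6a2 (76595762 to 76623630, minus strand) are neighbours with 85161 bases between them, and both have orthologues on the chromosome that people with Down syndrome hold in excess, although the Dp1Tyb duplication does not hold the mouse genes. Col6a1 stood at 166, 202, 181 and 129 RPKM in WT and at 118, 215, 208 and 167 RPKM in Dp1Tyb. Col6a2 stood at 103, 147, 121 and 78.7 RPKM in WT and at 65.7, 142, 143 and 117 RPKM in Dp1Tyb. In both genes Dp1Tyb 1 was the lowest library and WT 4 the next, and the genotypes overlapped. The log2 fold change was 0.06 ± 0.20 (SE) for Col6a1 and 0.06 ± 0.26 (SE) for Col6a2 under relative scaling, and 0.15 and 0.16 under spike-in scaling. Under relative scaling they were -0.05 and -0.08 without WT 4, and 0.21 and 0.26 without Dp1Tyb 1. Col6a3, the largest chain, stood at 145, 172, 199 and 136 RPKM in WT and at 182, 148, 184 and 157 RPKM in Dp1Tyb, and did not share the low value of Dp1Tyb 1. Its log2 fold change was 0.04 ± 0.15 (SE), with a 95% interval from -0.30 to 0.38, and was -0.03 without WT 4 and 0.16 without WT 3.

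Col18a1 was the collagen gene with the smallest p. It encodes the multiplexin type XVIII, a basement membrane proteoglycan whose C-terminal part is released as endostatin, and it lies on chromosome 10 from base 77052178 to 77166548 on the minus strand. It stood at 42.3, 20.3, 28.9 and 29.1 RPKM in WT and at 20.4, 18.1, 20.3 and 23.8 RPKM in Dp1Tyb. Of the WT libraries, 3 lay above all Dp1Tyb libraries and WT 2 lay among them, so the groups overlapped. Under relative scaling Dp1Tyb was lower, with a log2 fold change of -0.55 ± 0.20 (SE), a 95% interval from -0.98 to -0.11 and an unadjusted p of 0.0193 by edgeR's quasi-likelihood test. After adjustment over all genes p was 0.999, and under spike-in scaling the difference was -0.45 ± 0.32 (SE) on the log2 scale, at an unadjusted p of 0.151. Without WT 1, the highest library, the difference was -0.33 ± 0.15 (SE) and the unadjusted p was 0.0525; without Dp1Tyb 2 the unadjusted p was 0.0517. Under spike-in scaling the difference without WT 1 was -0.11 ± 0.36 (SE) on the log2 scale, at an unadjusted p of 0.768. In the annotation Col18a1 overlaps Slc19a1 and a processed pseudogene on the opposite strand, and since the strand option of the counting is not given in the sources used here, reads from these genes could not be told apart from its own if strand was ignored.

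Col15a1 encodes the other multiplexin. It stood at 1.23, 2.35, 1.15 and 0.788 RPKM in WT and at 0.374, 1.46, 1.45 and 1.16 RPKM in Dp1Tyb. It differed by -0.32 ± 0.44 (SE) on the log2 scale under relative scaling, and by 0.08 without WT 2. Under spike-in scaling it differed by -0.24 and turned to 0.07 without WT 2 and to 0.04 without Dp1Tyb 1. Its libraries did not follow those of Col18a1: WT 2 was the highest of all for Col15a1 and among the lowest for Col18a1.

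The short-chain collagens form hexagonal lattices, type VIII below endothelia and type X in growth plate cartilage. Col8a1 (chromosome 16, bases 57624258 to 57754737) stood at 52.8, 48.0, 23.6 and 25.0 RPKM in WT and at 46.5, 53.5, 49.1 and 41.7 RPKM in Dp1Tyb. The WT libraries fell into a high and a low pair, and the 4 Dp1Tyb libraries lay near the high pair. The log2 fold change was 0.35 ± 0.25 (SE) under relative scaling and 0.40 ± 0.32 (SE) under spike-in scaling, with unadjusted p-values of 0.197 and 0.208 by edgeR's quasi-likelihood test. Without WT 3 these values were 0.20 and 0.15, and without WT 1 they were 0.57 and 0.76. Col8a2, the other type VIII chain, had the largest positive log2 fold change of the family under relative scaling, 0.46 ± 0.48 (SE), and 0.45 ± 0.38 (SE) under spike-in scaling. It stood at 2.19, 2.24, 0.864 and 0.437 RPKM in WT and at 1.38, 3.05, 2.17 and 1.31 RPKM in Dp1Tyb, and WT 3 and WT 4 were again the low libraries. Without WT 4 the Col8a2 values were 0.16 and 0.18, without WT 2 they were 0.78 and 0.65, and without WT 1 they were 0.74 and 0.91.

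Col10a1, the type X chain, is given after its values were seen. It stood at 2.21, 3.86, 3.57 and 3.15 RPKM in WT and at 2.54, 4.04, 4.87 and 4.85 RPKM in Dp1Tyb, so that 3 of 4 Dp1Tyb libraries lay above every WT library and Dp1Tyb 1 lay among the low ones. Its log2 fold change was 0.35 ± 0.24 (SE) under relative scaling and 0.50 ± 0.36 (SE) under spike-in scaling, the largest positive value of the family there, at unadjusted p-values of 0.178 and 0.167 by edgeR's quasi-likelihood test. Leaving out 1 library in turn gave 0.21 without WT 1 to 0.52 without Dp1Tyb 1 under relative scaling and 0.26 without Dp1Tyb 4 to 0.67 without Dp1Tyb 2 under spike-in scaling. Col10a1 overlaps Nt5dc1 on the opposite strand in the annotation, and their reads could not be told apart if strand was ignored.

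In the remaining classes Col12a1 was at 242 RPKM on average, Col16a1 at 20.99 RPKM and Col7a1 at 10.9 RPKM. Among the 9 fibril-associated genes, 7 had a log2 fold change below 0 under relative scaling, where 8040 of 16470 tested genes did. Under spike-in scaling 5 of the 9 did, beside 4873 of 16470. Col9a1, a cartilage chain, had the largest log2 fold change of the family in size under relative scaling, -0.56 ± 0.69 (SE), and -0.36 ± 0.52 (SE) under spike-in scaling, on counts of 8 to 73 per library. It stood at 0.152, 0.808, 0.185 and 0.101 RPKM in WT and at 0.111, 0.286, 0.103 and 0.375 RPKM in Dp1Tyb, and without WT 2, where it was highest, the log2 fold change was 0.56 under relative scaling and 0.66 under spike-in scaling. Col17a1, a transmembrane chain that anchors epithelial cells to their basement membrane, stood at 0.560, 0.334, 0.271 and 0.287 RPKM in WT and at 0.311, 0.186, 0.220 and 0.340 RPKM in Dp1Tyb. Its log2 fold change was -0.46 ± 0.31 (SE) under relative scaling and -0.34 ± 0.48 (SE) under spike-in scaling, on counts of 18 to 70 per library, and without WT 1 these values were -0.16 and 0.10. Col26a1 was also among the most variable genes, with levels from 0.0891 to 0.476 RPKM in WT and from 0.114 to 0.397 RPKM in Dp1Tyb.

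Under relative scaling the collagen genes had a larger spread between cultures of the same genotype than the median gene. The median SD of log2 CPM within a genotype was 0.44 over the 41 collagen genes and 0.28 over all tested genes, while under spike-in scaling it was 0.54 and 0.48. Among genes that averaged 100 counts or more, under relative scaling, it was 0.42 for 29 collagen genes and 0.21 for 11001 genes in all. Among these 29 the SD ran from 0.21 for Col6a3 to 0.90 for Col8a2. Libraries of both genotypes were at the extremes. Dp1Tyb 1 was the lowest library for 16 of 41 collagen genes (39.0%), beside 18.9% of all tested genes, and WT 4 for 11 of 41 (26.8%), beside 13.7%. WT 2 was the highest for 12 of 41 (29.3%), beside 11.4%, WT 1 for 10 of 41 (24.4%), beside 19.4%, and Dp1Tyb 2 for 8 of 41 (19.5%), beside 20.7%. The order was not shared by all members, since WT 1 was also the lowest library for 5 of the 41 and Dp1Tyb 2 for 4.

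**Figure D4:**
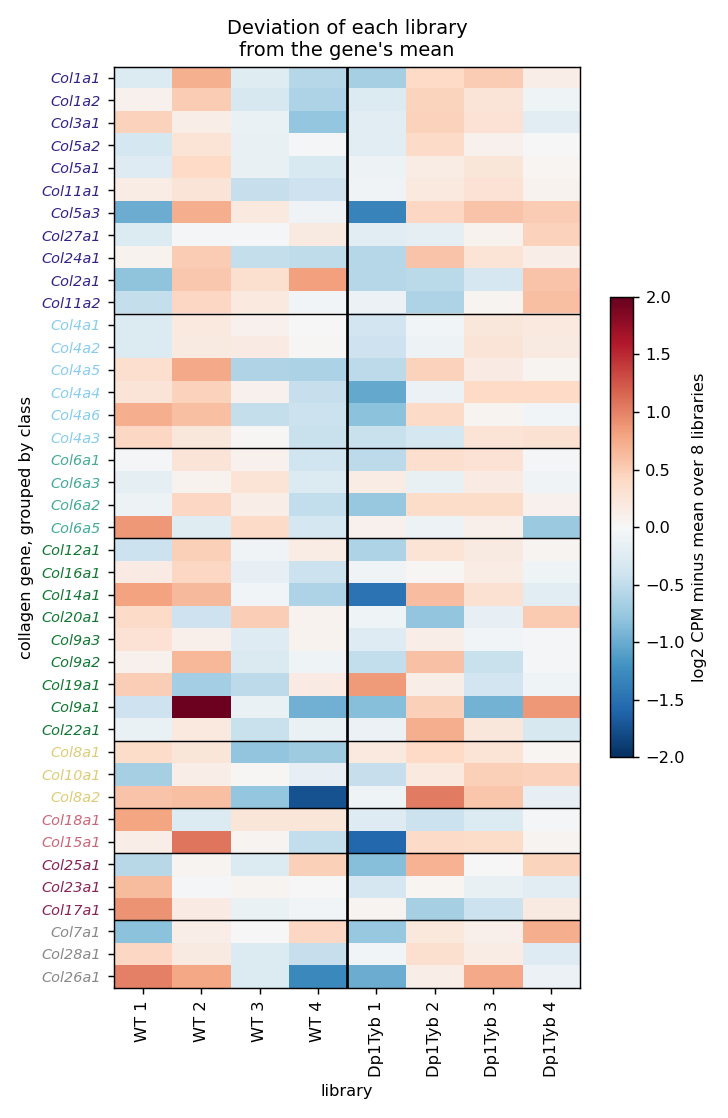
Deviation of each library from the gene's mean log2 CPM over 8 libraries (colour scale from -2 to 2) for the 41 tested collagen genes, in rows grouped by class between horizontal lines, with WT and Dp1Tyb libraries on either side of the vertical line. WT 2, Dp1Tyb 2 and Dp1Tyb 3 are mostly red and WT 4 and Dp1Tyb 1 mostly blue among the fibrillar and type VI genes, while Col4a1, Col4a2 and Col6a3 stay near white.

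Markers of contractile fibroblasts also differed between cultures of the same genotype. The 5 smooth muscle and myofibroblast markers, which all passed the filter, summed to 575, 2285, 590.0 and 781 CPM in WT and to 476, 2789, 1838 and 1416 CPM in Dp1Tyb. The gene for smooth muscle actin, Acta2, carried most of this, from 330 CPM in Dp1Tyb 1 to 1923 CPM in Dp1Tyb 2. WT 2, Dp1Tyb 2 and Dp1Tyb 3 were the highest libraries for these markers as for Col1a1, and Dp1Tyb 1 was the lowest for both, while WT 1 was next to the lowest for these markers and highest for 10 of the collagen genes. All 5 had a log2 fold change above 0 under both scalings, with a median of 0.66 under relative scaling and 0.67 under spike-in scaling, where 51.2% and 70.4% of all genes were above 0. Of the 5, Acta2 and Des, the desmin gene, passed 0.05 without adjustment in edgeR's quasi-likelihood test when scaled to the spike-ins, beside 0.85% of all genes, and 0 of 5 passed under relative scaling. Their SEs were 0.32 and 0.35 with spike-ins, beside 0.56 and 0.63 under relative scaling. The spike-in passes thus rest on a pooled spread and not on that of these 2 genes. The part of these cells in the values of the fibrillar and processing genes was not tested. Markers of tendon, osteoblasts, skeletal muscle, endothelium, epithelium and glia or neurons each summed to at most 120.5 CPM in any library, and their ranges overlapped between the genotypes. In these lists Myh3, a skeletal muscle myosin gene at 0.804 to 9.03 CPM, and Ibsp, an osteoblast gene at 0.0387 to 9.29 CPM, also passed 0.05 without adjustment when scaled to the spike-ins, and both had a log2 fold change above 0. These were 1 of 3 tested skeletal muscle markers and 1 of 4 tested osteoblast markers, and the other lists held 0. Ibsp stood at 0.804, 3.39, 0.0947 and 0.146 CPM in WT and at 0.0387, 9.29, 0.0492 and 1.38 CPM in Dp1Tyb. Thus 2 Dp1Tyb libraries lay below every WT library, and Dp1Tyb 2 was far above the rest. Neither gene passed 0.05 under relative scaling. The SE of Ibsp was 0.49 with spike-ins and 1.36 under relative scaling, and that of Myh3 was 0.43 and 0.55, so these passes too rest on the pooled spread.

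Chains were also compared in pairs as ratios within a library, which removes any scaling between libraries. Col3a1 and Col1a1 belong to separate molecules, as do Col18a1 and Col15a1, and the chains of the other pairs can assemble with each other. None of the 9 ratios passed the test between the genotypes: the smallest adjusted p of the two-sided exact permutation test was 0.971, where the smallest p the design allows before adjustment is 0.0286. After adjustment over 9 ratios, a single ratio at that smallest p would stay above 0.05, so the adjusted test could not call 1 ratio alone. Before adjustment, 0 of the 9 had an exact p under 0.05. The log2 ratio of Col4a1 to Col4a2, per exon length, was 0.40 ± 0.04 (SD, n = 4) in WT and 0.44 ± 0.04 (SD, n = 4) in Dp1Tyb, and the raw counts stood at 1.43 to 1.56 Col4a1 reads per Col4a2 read in all 8 libraries. Its SD within a genotype was 0.04 on the log2 scale, while the chains themselves varied by 0.25 and 0.27 and counting alone would give 0.01. Reads from the 22 bases where the gene models of Col4a1 and Col4a2 overlap could not be told apart if strand was ignored. The other head-to-head pairs were added after the values had been seen. Col4a3 to Col4a4 had an SD of 0.29, where counting alone gives 0.32, and Col4a5 to Col4a6 had 0.18, where counting alone gives 0.23, so any spread beyond counting was not detectable at this depth.

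Col6a1 and Col6a2, which are neighbours, had a ratio with an SD of 0.13, where Col6a3 to Col6a1 had 0.37. Col5a1 to Col5a2, from genes on chromosomes 2 and 1, had 0.17, so a low SD was not limited to neighbours. The 2 chains of type I are made from genes on chromosomes 11 and 6, and type I collagen holds 2 Col1a1 chains for 1 Col1a2 chain. The count ratio of Col1a1 to Col1a2 per length of the transcript with the longest coding sequence was 0.973, 1.43, 1.31 and 1.28 in WT and 0.950, 1.20, 1.47 and 1.45 in Dp1Tyb, so that WT 1 and Dp1Tyb 1 had the lowest ratios. Its log2 value differed by 0.02 between the genotypes, with an SD of 0.27 within them. Col3a1 to Col1a1 ran from 0.354 to 0.873 in WT and from 0.410 to 0.718 in Dp1Tyb on the same scale, and WT 1 and Dp1Tyb 1 had the highest values.

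Col11a1, a type XI chain that can assemble with type V chains, stood at 0.231, 0.157, 0.140 and 0.160 of the level of Col5a1 in WT libraries 1 to 4 and at 0.177, 0.179, 0.179 and 0.177 in Dp1Tyb libraries 1 to 4, per length of the transcript. The 4 Dp1Tyb ratios lay close together inside the WT range, and this difference in spread was not tested.

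**Figure D5:**
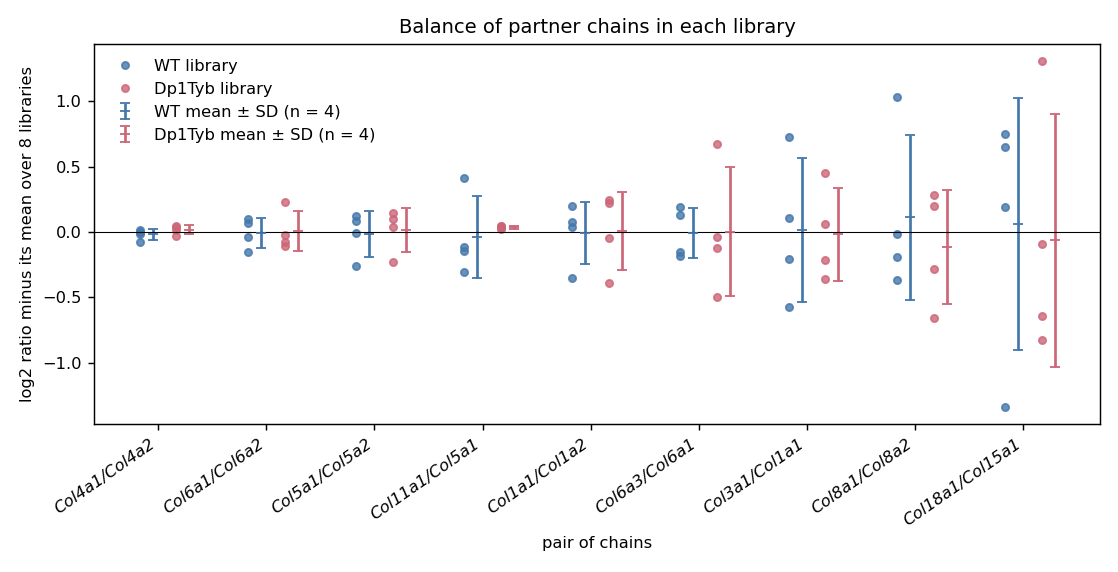
Log2 ratio of 9 pairs of chains in each library, with the mean over 8 libraries subtracted, as points for WT and Dp1Tyb with the mean ± SD (n = 4) beside them. The pairs are ordered from Col4a1/Col4a2, whose 8 points nearly coincide, to Col18a1/Col15a1, which spreads over more than 2 log2 units, and the genotypes overlap in each.

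Collagen chains are hydroxylated, glycosylated, folded, exported, trimmed and cross-linked by other proteins. Of 46 such genes, 45 were in the table and all 45 were tested. None was called under either scaling, and at an unadjusted p under 0.05, 5 of 45 were higher in Dp1Tyb under relative scaling, beside 1.74% of all tested genes, and 2 of 45 under spike-in scaling, beside 0.85%. None was lower, where 2.53% and 0.316% of all genes were. With each library left out in turn, the number with an unadjusted p under 0.05 ran from 0, without WT 3 or WT 4, to 10, without WT 2, under relative scaling, and from 0, without WT 3, to 9, without Dp1Tyb 2, under spike-in scaling. A log2 fold change above 0 was found for 37 of 45 under relative scaling, with a median of 0.19, beside 51.2% of all genes, and for 41 of 45 under spike-in scaling, with a median of 0.26, beside 70.4%. With each library left out in turn, between 32 and 39 of the 45 were above 0 under relative scaling. By step, this held for 13 of 15 hydroxylases, their partners and sugar transferases, 7 of 7 folding and export genes, 4 of 7 propeptide cleavage genes, 5 of 5 cross-linking enzymes, 6 of 8 receptors and uptake genes and 2 of 3 matrix partners. These genes too were measured in the same libraries and are not independent observations.

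The 5 genes with an unadjusted p under 0.05 by edgeR's quasi-likelihood test under relative scaling all had an adjusted p of 0.999. P4ha2, a catalytic subunit of the prolyl hydroxylase that stabilises the helix, stood at 62.1, 78.8, 52.6 and 50.7 CPM in WT and at 103, 85.2, 73.7 and 71.9 CPM in Dp1Tyb, with a log2 fold change of 0.45 ± 0.17 (SE). P4ha1, the other major catalytic subunit, stood at 288, 232, 220.0 and 224 CPM in WT and at 484, 305, 278 and 272 CPM in Dp1Tyb, with a log2 fold change of 0.47 ± 0.19 (SE). Dp1Tyb 1 was far above the others for P4ha1, as it was for the lysyl hydroxylase gene Plod2 at 500.2 CPM beside at most 229 CPM elsewhere. Loxl2, a lysyl oxidase that cross-links collagen, had a log2 fold change of 0.48 ± 0.19 (SE), Sparc, a collagen-binding matricellular protein, 0.32 ± 0.13 (SE), and Fkbp10, a chaperone of procollagen, 0.34 ± 0.15 (SE). Leaving out 1 library in turn gave log2 fold changes of 0.33 to 0.61 for P4ha2, 0.24 to 0.58 for P4ha1, 0.39 to 0.74 for Loxl2, 0.27 to 0.41 for Sparc and 0.29 to 0.49 for Fkbp10, and for each of them the largest unadjusted p was above 0.05. P4ha1 was lowest at 0.24 without Dp1Tyb 1. With spike-in scaling, 0 of these 5 passed 0.05 before adjustment. The 2 genes that passed there were Plod2 and Itga2, a chain of a collagen-binding integrin, which are named after their values were seen. Both were highest in Dp1Tyb 1, where Itga2 stood at 14.0 CPM beside at most 5.81 CPM elsewhere.

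Among 18 genes of transcription factors and TGF-beta signalling that act on collagen genes, 8 (44.4%) had a log2 fold change above 0 under relative scaling, beside 51.2% of all tested genes. Under spike-in scaling 13 (72.2%) did, beside 70.4%, so both counts lay near the share of all genes. None was called under either scaling, beside 0.0182% of all genes under relative and 0.0121% under spike-in scaling. Of the 18 genes, 2 were higher at an unadjusted p under 0.05 under relative scaling, beside 1.74% of all genes, and 1 of 18, Smad3, had its 4 Dp1Tyb libraries above every WT library, beside 1.64%. Under spike-in scaling 1 of 18, Ccn2, was higher at an unadjusted p under 0.05, beside 0.85% of all genes. There 0 of 18 had the 4 Dp1Tyb libraries above every WT library, beside 48 of 16470 tested genes. Tgfb3, Ccn2 and Smad3 are named after their values were seen. Tgfb3, a TGF-beta ligand, stood at 123, 172, 160.3 and 144 CPM in WT and at 168, 223, 241 and 215 CPM in Dp1Tyb, with 3 of 4 Dp1Tyb libraries above every WT library and a log2 fold change of 0.50 ± 0.14 (SE). Its adjusted p was 0.903 by edgeR's quasi-likelihood test. Ccn2, a matricellular target of TGF-beta, differed by 0.57 ± 0.22 (SE) on the log2 scale, at an adjusted p of 0.999, and stood at 202, 387, 217 and 276 CPM in WT and at 510, 428, 342 and 323 CPM in Dp1Tyb. Leaving out 1 library in turn gave 0.43 to 0.80 for Ccn2, with a largest unadjusted p of 0.0829 by the same test. For Tgfb3 it gave 0.42 to 0.59, with a largest unadjusted p of 0.0222. Smad3, a transducer of TGF-beta signals, stood at 82.0, 88.5, 89.96 and 91.5 CPM in WT and at 115, 94.3, 98.7 and 94.1 CPM in Dp1Tyb, with a log2 fold change of 0.19 ± 0.10 (SE) and an adjusted p of 0.999 by the same test.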

How the data were processed

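Poly(A) RNA of 8 MEF libraries (4 WT, 4 Dp1Tyb, from the labels) was sequenced as paired ends after addition of ERCC spike-ins. Per the methods and the submitters' processing notes, the authors trimmed adapters with Trim Galore, aligned reads to GRCm38 with the spike-in sequences in TopHat2 2.0.12, discarded reads with several alignments and counted genes with HTSeq. Annotation release and strand option are not given in the sources used here. The deposited raw counts, whole numbers without normalisation, were used. The deposited normalised values and the authors' DESeq2 1.6.3 table of fold changes and p-values were not used.

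Symbols, positions, transcripts and exon lengths came from GENCODE M21, where 19318 of 19493 IDs matched, and promoter windows from RefSeq (GRCm38.p6). Genes were filtered with filterByExpr (16470 kept) and tested with genotype as the only term with the two-sided quasi-likelihood method (edgeR 4.0.16, R 4.3.3), with Benjamini-Hochberg adjustment over all genes and a threshold of 0.05. Relative scaling used TMM factors over endogenous genes, and spike-in scaling used median-of-ratios factors over 63 spike-ins. RPKM used the transcript with the longest coding sequence. Ratios of chains used counts plus 0.5 per union exon length, with exact permutation tests over 70 assignments and adjustment over 9 ratios. Log2 CPM also used a pseudocount of 0.5 counts. A Gly-X-Y run was at least 3 triplets.

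The collagen classes, gene lists, tests and the rule for named genes were chosen with earlier results of these data known. The rule named 12 genes by role, collagen genes with an unadjusted p under 0.05, the 5 with the largest change, the 5 with the largest spread within a genotype and up to 6 processing genes with an unadjusted p under 0.05. Col10a1, Itga2, Plod2, Tgfb3, Ccn2 and Smad3 were added after their values were seen. Collagen genes had between 56 and 901378 counts over all libraries. Pairs of libraries of a genotype gave a chi-square of 10.5 to 96.8 per degree of freedom, so none was a duplicate and replicate error exceeded counting error. Alternatives were DESeq2 1.42.0, other scaling factors, no filter, a mean count of at least 100, each library left out, a replicate block, a pseudocount of 5, other shares and other lengths.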

Additional observations from a re-analysis of the deposited data

Results flagged for a closer look

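The 30 named values (20 genes, 9 ratios and the collagen share) were examined in each genotype for a library far from the other 3 of its group, which chance alone gives for about 1 in 20 groups. Of the 60 groups of 4 libraries, 1 held such a library. Col5a3 in Dp1Tyb 1 stood at 5.32 log2 CPM, where the other 3 Dp1Tyb libraries stood between 7.08 and 7.24 log2 CPM, and its gap to them was 0.914 of the range of the group. WT 1 was also low for Col5a3 among the WT libraries.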

How the results depend on the processing

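In each alternative that was run, 0 collagen genes and 0 processing genes were called under either scaling, and no ratio of chains was called. With all libraries the smallest exact p is 0.0286, and adjustment over 9 ratios puts a single ratio at that value above 0.05. The ratios cannot go below an exact p of 0.0571 without 1 library or 0.125 with the replicate block. At an unadjusted p under 0.05 there were 1 collagen gene and 5 processing genes under relative scaling and 2 processing genes under spike-in scaling. The number of all genes called was 52 with DESeq2 under relative scaling, beside 3 with edgeR, and 0 with a mean count of at least 100 under either scaling. The labels do not say what equal replicate numbers share, and the main tests did not take them as pairs because 1 of 4 correlations was near 0. Same-numbered libraries had correlations of 0.366, 0.524, 0.0297 and 0.327 between their deviations from the genotype means, and 3 of 4 matched their own number best. These values do not settle whether the libraries are paired, and the main tests would ignore such a pairing. With the replicate block, 9 genes of all tested were called with spike-ins and 7 with relative scaling, 0 of them collagens, and the number of processing genes with an unadjusted p under 0.05 was 8 and 15 of 45, beside 3.03% and 9.72% of all genes in the same fits. By edgeR's quasi-likelihood test, 2 collagen genes had an unadjusted p under 0.05 with the block under each scaling: Col8a1, with a log2 fold change of 0.53 ± 0.25 (SE), and Col8a2, with 0.73 ± 0.31 (SE), under spike-in scaling, and Col18a1, with -0.50 ± 0.14 (SE), and Col10a1, with 0.34 ± 0.13 (SE), under relative scaling. With libraries left out in turn, the difference in collagen share ran from -0.133 to 0.298 percentage points, and the median log2 fold change of the collagen genes ran from -0.06 to 0.13 under relative scaling and from -0.08 to 0.25 under spike-in scaling, so neither has a stable direction. The Col4a1 to Col4a2 ratio was higher in Dp1Tyb in 4 of 4 same-numbered pairs, by 0.04 on the log2 scale on average, and its exact p with the block was 0.125, the smallest that pairing allows. The level of a ratio of chains depends on the length used: Col1a1 to Col1a2 was 2.61 per union exon length, 1.30 per coding length and 1.24 per transcript length, while differences between the genotypes do not use the length. Counting error was 0.005 on the log2 scale for Col1a1, beside an SD of 0.54 between libraries, and 0.41 for Col22a1, beside an SD of 0.37, so depth limits what can be said of chains with few counts.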
